A study of Mus musculus with 5 samples.

Results

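The transcripts of 9 genes of bone morphogenetic protein (BMP) and activin signalling were followed through muscle regeneration in mesenchymal progenitors of the mouse hindlimb. The genes were listed by name and make up 9 of the 28001 features counted. They are the ligands Bmp2, Bmp4 and Gdf10, the activin subunit gene Inhba, the protease gene Bmp1, and the secreted binding proteins Fst, Fstl1, Grem1 and Chrdl1. All 9 were present in the gene list, 8 of them gave UMIs in every library, and Grem1 was close to absent.

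Mice of the C57BL/6J strain carried the genotype Hic1CreERT2/CreERT2;Rosa26LSLtdTomato/+, and at 8 weeks of age were given tamoxifen (2.5 mg in 100 uL, daily, 5 days), followed by a washout of 10 days. Cells of whole hindlimb muscle were purified by flow cytometry for tdTomato and sequenced with the 10x Chromium 3' v2 chemistry, 1 library from quiescent cells and 1 from each of days 1, 2, 4 and 14 after notexin, a snake venom toxin that destroys muscle fibres. All 5 groups shared the genotype and the tamoxifen course, so the cells of every group carried the CreERT2 allele at both copies of Hic1. The label reaches only cells in which Hic1 was active under tamoxifen, and their descendants. The number of mice behind a library is not given in the sources used here. With 1 library per time, a difference between days compares libraries, has no test, and cannot be told apart from any difference in sorting or library preparation. Every day was set against the same quiescent library.

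BMPs and activins are secreted dimers of the transforming growth factor beta superfamily that bind paired type I and type II serine/threonine kinase receptors. BMP receptors phosphorylate Smad1, Smad5 and Smad9, and activin receptors Smad2 and Smad3, which enter the nucleus with Smad4. BMP signalling switches on the Id genes in many cell types. Extracellular antagonists such as follistatin, gremlin, noggin and the chordins hold the ligands away from their receptors, and tolloid proteases can release them by cutting chordin.

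Of 17213 barcodes, 17085 had at least 500 genes and at most 10% mitochondrial unique molecular identifiers (UMIs), and libraries shared 8 to 26 barcodes in a pair, at most 0.968% of the smaller one. Cells with at least 5 UMIs over Tnmd, Fmod, Kera and Chad formed the tenocyte class of 1394 cells, and cells with at least 5 over Rgs5, Kcnj8, Abcc9 and Higd1b formed the mural class of 608. The 15077 cells with neither are called remaining cells. They held 7309210 UMIs in the quiescent library and 12451460 to 42679103 at the later times, whereas mural sums held 196686 to 817491. In remaining cells 8 progenitor markers summed to between 10331 and 34226 counts per 1000000 UMIs (CPM), against at most 11.7 CPM for 8 immune markers and 30.9 CPM for 5 endothelial ones. Myogenic markers summed to 20.5 to 49.7 CPM there, nerve sheath markers to 4.15 to 118 CPM, highest at day 14, and 2 smooth muscle genes to 15.3 to 250.1 CPM, highest at day 4. The part of the smooth muscle genes in the day ratios was not tested, and leaving out the cells with markers of the other types kept the day ratios of the 8 members other than Grem1 within their intervals. Only 144 remaining cells carried at least 5 UMIs of myogenic, nerve sheath, immune or endothelial markers. The lineage reporter tdTomato had 745 to 1673 CPM in remaining cells, and Hic1 itself 37.8 CPM in the quiescent library and 10.1 to 36.1 CPM after injury. The tenocyte class was 23.1% of kept cells at day 14 and 3.80% to 5.89% in the other libraries.

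The 250 bases before the RefSeq starts (GRCm38.p6) of Bmp4, which was low at days 1 to 4 and in mural cells, and of Inhba, which was higher at day 1, are shown for context. Bmp4 (ENSMUSG00000021835) lies at chr14:46383520-46390669 on the minus strand, with its upstream window at chr14:46390670-46390919. Inhba (ENSMUSG00000041324) lies at chr13:16011851-16031621 on the plus strand, with its window at chr13:16011601-16011850. Both are written 5' to 3' on the strand of the gene.
Bmp4: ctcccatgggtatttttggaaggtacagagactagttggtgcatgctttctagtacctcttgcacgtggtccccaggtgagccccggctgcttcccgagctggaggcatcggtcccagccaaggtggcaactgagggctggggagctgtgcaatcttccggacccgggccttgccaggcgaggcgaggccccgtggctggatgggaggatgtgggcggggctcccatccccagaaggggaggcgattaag
Inhba: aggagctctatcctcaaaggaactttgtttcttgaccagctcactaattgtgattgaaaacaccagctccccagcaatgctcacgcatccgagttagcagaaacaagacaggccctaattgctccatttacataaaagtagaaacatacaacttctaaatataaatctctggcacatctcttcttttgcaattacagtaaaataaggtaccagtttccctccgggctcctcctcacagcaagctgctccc
Windows were searched on both strands for TGACTCA, the AP-1 site, which 4.46% of 32851 RefSeq promoter windows hold, for TGACGTCA, the cAMP response element (1.55%), and for GGCGCC, a GC element bound by Smad1 (9.59%). A match would be printed in capitals, and neither window has one. Of the other members, Gdf10, Fstl1 and Grem1 had an entry, and of these Grem1 held GGCGCC, 78 bases before its start. Of the window's bases, 63.2% were G or C for Bmp4 and 43.2% for Inhba.

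In remaining cells Bmp2 and Bmp4 were low throughout days 1 to 4, and Gdf10 was low at days 1 and 4. Bmp4, a BMP known for roles in mesoderm and in bone and fat lineage choice, had 113 CPM in the quiescent library, then 15.9 (day 1), 14.98 (day 2), 19.3 (day 4) and 79.1 (day 14). The levels at days 1 and 2 were within counting error of each other and the lowest. The level was 7.13-fold lower at day 1 than in the quiescent library (95% interval 6.43 to 7.90), 7.57-fold lower at day 2 (6.76 to 8.49), 5.87-fold lower at day 4 (5.27 to 6.54) and 1.43-fold lower at day 14 (1.31 to 1.57). These intervals, exact conditional binomial ones as throughout, cover counting error only. Bmp4 overlaps Gm15217 and Gm15222 on the other strand, both of which were counted as features, and whether counting used strand is not given in the sources used here. Antisense genes annotated over Inhba and Fst were not among the counted features.

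Bmp2 (ENSMUSG00000027358, chr2:133552159-133562885), a potent bone-inducing BMP, had a similar course, with 67.6 CPM in the quiescent library, then 10.2 (day 1), 8.94 (day 2), 15.2 (day 4) and 39.8 (day 14). It was 6.65-fold lower than quiescent at day 1 (5.83 to 7.58), 7.56-fold lower at day 2 (6.52 to 8.78) and 4.46-fold lower at day 4 (3.91 to 5.07). At day 14 it was still 1.70-fold lower (1.498 to 1.93). Gdf10 (ENSMUSG00000021943, chr14:33923587-33937983), also named BMP3B, is a BMP-related ligand expressed by fibroblastic cells. Its course had a break at day 2, with 38.9 CPM in the quiescent library, then 11.4 (day 1), 29.7 (day 2), 14.0 (day 4) and 59.1 (day 14). It was 3.42-fold lower at day 1 (2.94 to 3.97), 1.31-fold lower at day 2 (1.14 to 1.495), 2.77-fold lower at day 4 (2.37 to 3.22) and 1.52-fold higher at day 14 (1.32 to 1.75).

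Inhba encodes the beta A subunit that pairs into activin A. It was the 1 member more than 2-fold higher at day 1, with 25.2 CPM in the quiescent library, then 67.1 (day 1), 10.4 (day 2), 9.61 (day 4) and 20.6 (day 14). The day 1 level was 2.67-fold above quiescent (2.296 to 3.11), and the levels of the following days were 2.42-fold (2.01 to 2.91) and 2.62-fold (2.16 to 3.16) below it. Days 2 and 4 were within counting error of each other. After each cell was thinned to 2000 UMIs, 3.84% of remaining cells had an Inhba UMI in the quiescent library, then 7.72% (day 1), 1.08% (day 2), 1.57% (day 4) and 3.74% (day 14). In mural cells, where Inhba was sparse, the thinned shares were 1.03% of 97 cells at day 1, 0 of 42 at day 2 (which allows up to 7.14%), 0 of 114 at day 4 (up to 2.63%) and 1.06% of 188 at day 14. The 21 quiescent mural cells deep enough gave 9.52%, which is 2 cells. Before thinning the remaining cells gave 7.32%, 19.0%, 6.65%, 5.51% and 7.51% in the same order, at median depths of 3883, 8788, 11165, 7072 and 4938 UMIs, and the mural cells gave 2.68%, 4.12%, 9.52%, 0 and 2.47% at median depths of 1427, 3028, 5410, 4059 and 2786.

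Bmp1 (ENSMUSG00000022098, chr14:70474558-70520234) encodes a tolloid metalloprotease that trims procollagen and cuts chordin, and is no BMP ligand. Its level dipped and returned sooner than those of Bmp2 and Bmp4, with 139.6 CPM in the quiescent library, then 38.8 (day 1), 68.3 (day 2), 144 (day 4) and 171 (day 14). It was 3.60-fold lower at day 1 (3.32 to 3.89) and 2.04-fold lower at day 2 (1.90 to 2.20). At day 4 it was 1.03-fold above quiescent (0.966 to 1.11), within counting error.

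Among the binding proteins, Fst was lowest at day 4 and Fstl1 highest then. Fst (ENSMUSG00000021765, chr13:114452290-114458951) encodes follistatin, which captures activins and myostatin. It had 118 CPM in the quiescent library, then 61.6 (day 1), 78.4 (day 2), 40.02 (day 4) and 105 (day 14), and was 2.95-fold lower at day 4 (2.70 to 3.22). Fstl1 (ENSMUSG00000022816, chr16:37776873-37836514), a secreted glycoprotein related to follistatin and SPARC, had 1727 CPM in the quiescent library, then 960.0 (day 1), 1372 (day 2), 2339 (day 4) and 1564 (day 14). Its largest departures, by total UMIs, were 1.80-fold lower at day 1 (1.76 to 1.83) and 1.35-fold higher at day 4 (1.33 to 1.38), both inside 2-fold.

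Chrdl1 (ENSMUSG00000031283, chrX:143285674-143394262) encodes chordin-like 1, a BMP antagonist. Remaining cells had 8.35 CPM in the quiescent library, then 8.90 (day 1), 14.2 (day 2), 7.82 (day 4) and 9.72 (day 14), and the 4 levels other than day 2 were within counting error of one another. Grem1 (ENSMUSG00000074934, chr2:113746164-113758646) encodes gremlin 1, which binds BMP2 and BMP4. It gave 1 UMI in remaining cells of the quiescent library, 1 at day 4 and none in the other 3 libraries. Its only other UMIs were 4 in tenocytes at day 4, so its course could not be read at this depth.

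**Figure D1:**
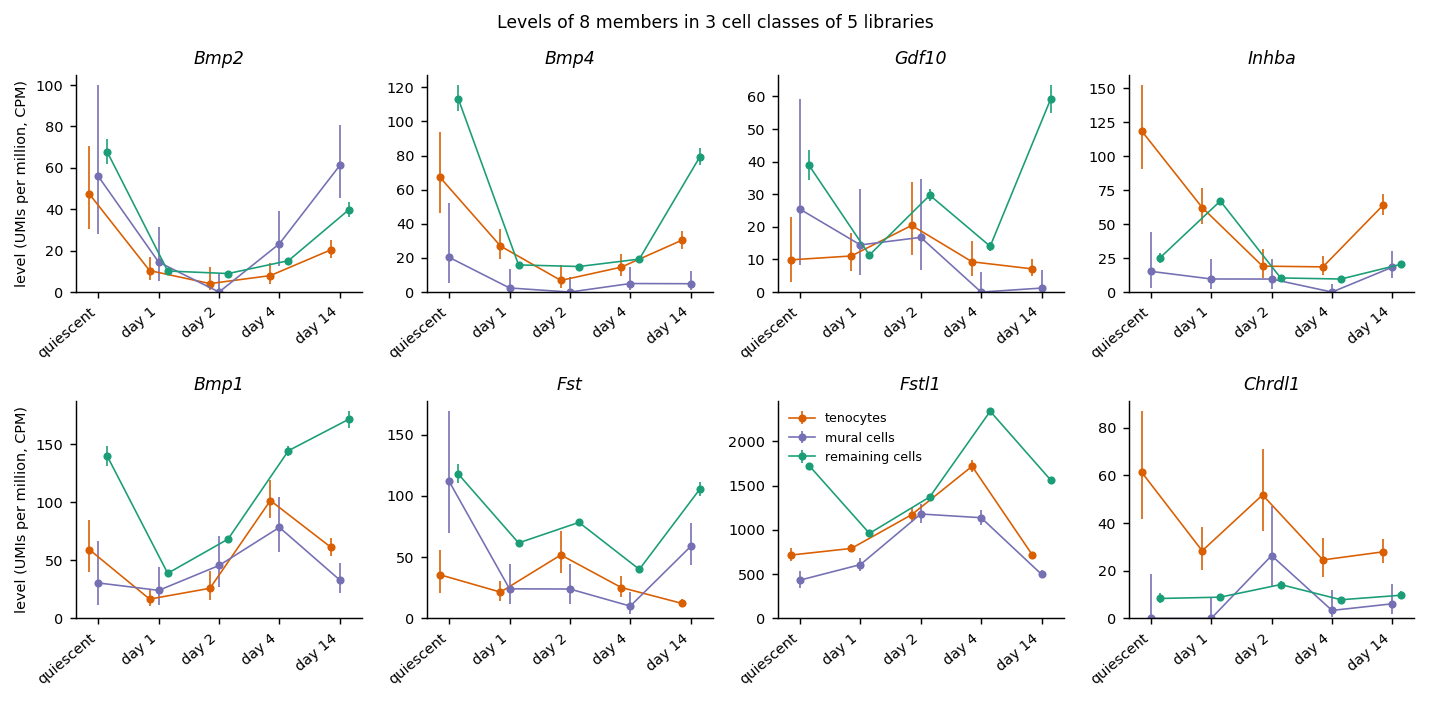
Levels in CPM (UMIs scaled by the class total, vertical axis) of the 8 members other than Grem1 in the 5 libraries (horizontal axis), for tenocytes, mural cells and remaining cells. Points are class sums, bars exact Poisson 95% intervals, and lines join libraries of 1 class. In remaining cells Bmp4 stood at 113 CPM (quiescent) and 14.98 CPM (day 2), and Chrdl1 was highest in tenocytes.

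Calls required a ratio of 2-fold or more and 20 CPM in whichever library was higher. By this rule 7 of the 9 members could be called each day, since Chrdl1 and Grem1 stayed under 20 CPM. At day 1, Inhba was higher (15.5% of 6045 genes were) and Bmp1, Bmp2, Bmp4 and Gdf10 were lower (24.3% of genes). At day 2 none of the 7 was higher (11.3% of 6074 genes) and Bmp1, Bmp2, Bmp4 and Inhba were lower (17.4%). At day 4 none was higher (6.34% of 5945 genes) and Bmp2, Bmp4, Gdf10, Inhba and Fst were lower (9.92%). At day 14 none was called in either direction, as 1.04% of 5757 genes were higher and 0.643% lower. The median log2 ratio of the 7 members was -1.77 (day 1), -1.03 (day 2), -1.47 (day 4) and -0.16 (day 14), and that of all genes tested was -0.16, -0.03, 0.02 and -0.01.

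Scaling bore on day 1 above all. TMM factors moved the median of all genes by 0.55 (day 1), 0.25 (day 2), 0.13 (day 4) and 0.02 (day 14) on the log2 scale, and DESeq2 size factors by 0.58, 0.30, 0.15 and 0.01. The counts of all genes higher and lower changed with it, at day 1 to 1961 and 708 under TMM against 935 and 1470 under total UMIs, at day 2 to 1140 and 659 against 687 and 1055, and at day 4 to 478 and 445 against 377 and 590. The members called at day 1 kept their direction and their side of 2-fold under both scalings: log2 ratios under TMM were -2.29 for Bmp4, -2.18 for Bmp2, -1.30 for Bmp1, -1.23 for Gdf10 and 1.96 for Inhba. At day 2 Bmp1 was inside 2-fold under TMM (log2 ratio -0.78) and DESeq2 (-0.73), and Inhba was inside it under DESeq2 (-0.98). Fstl1, which was not called, had a day 1 log2 ratio of -0.85 under total UMIs, -0.30 under TMM and -0.27 under DESeq2. Its day 4 values were 0.44, 0.57 and 0.59, so day 4 was the larger departure under TMM and DESeq2.

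**Figure D2:**
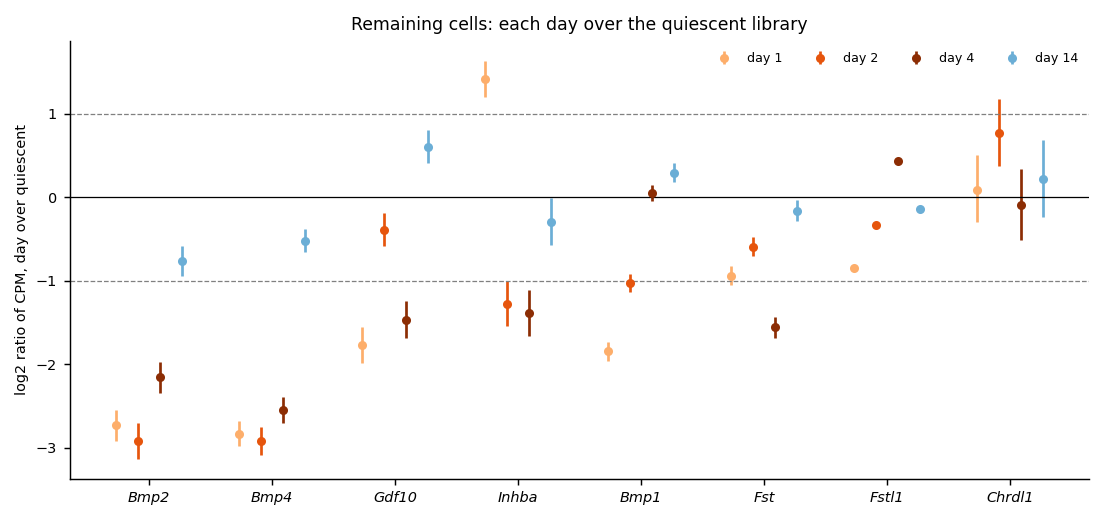
Log2 ratio of CPM (vertical axis) of days 1, 2, 4 and 14 over the quiescent library in remaining cells, for 8 members. Bars are exact conditional binomial 95% intervals, dashed lines mark 2-fold, and all points share the quiescent library. Bmp2 and Bmp4 lay below the lower dashed line at days 1, 2 and 4, and Inhba lay above the upper one at day 1.

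Tenocytes shared the low Bmp2 and Bmp4 of days 1 to 4 and differed in Inhba. Their Inhba level was 119 CPM in the quiescent library, then 62.3 (day 1), 19.1 (day 2), 18.6 (day 4) and 64.2 (day 14). Tenocytes were thus 1.90-fold below their own quiescent level at day 1 (1.35 to 2.67), when remaining cells were 2.67-fold above theirs, and the levels of the 2 classes, 62.3 CPM in tenocytes and 67.1 in remaining cells, were then within counting error. At days 2 and 4 tenocyte Inhba was 6.21-fold (3.43 to 12.0) and 6.39-fold (4.01 to 10.4) below quiescent. Tenocyte Bmp4 had 67.2 CPM in the quiescent library, then 27.0 (day 1), 6.82 (day 2), 14.6 (day 4) and 30.3 (day 14). Tenocyte Bmp2 had 47.4, 10.4, 4.09, 7.96 and 20.4 CPM in the same order. The day 2 levels rest on 3 UMIs of Bmp2 and 5 of Bmp4, and were within counting error of those at day 4, from 12 and 22 UMIs. At day 14 they were still 2.22-fold (Bmp4, 1.47 to 3.26) and 2.33-fold (Bmp2, 1.42 to 3.70) below the quiescent tenocytes.

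Mural sums were the shallowest, and most members gave few UMIs there. Summed myogenic markers were also higher in mural cells, at 119.8 to 535 CPM, than in remaining cells, at 20.5 to 49.7 CPM. Nearly all of the mural sum was Des (117 to 533 CPM), which mural cells are also known to express, while Pax7, Myf5 and Myod1 gave no UMI in any mural sum and Acta1 had 2.40 to 10.003 CPM. Mural Bmp2 had 55.9 CPM in the quiescent library (11 UMIs), 14.5 at day 1, no UMI at day 2, 23.3 CPM at day 4 and 61.2 at day 14. The 95% interval puts the day 2 level at least 5.33-fold below quiescent. Mural Fst had 112, 24.1, 24.0, 10.0 and 58.7 CPM in the same order, and was 11.2-fold lower at day 4 (4.40 to 33.7). Mural Fstl1 moved the other way, with 432, 607, 1179, 1137 and 498 CPM, 2.73-fold above quiescent at day 2 (2.16 to 3.48) and 2.63-fold above at day 4 (2.10 to 3.34).

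The classes were then compared within libraries, which replicate the class difference at 5 different times. UMIs summed per class and library were fitted with edgeR's quasi-likelihood test with library as a term, and p-values were adjusted by the Benjamini-Hochberg method over 9423 genes. Each SE is the size of the log2 fold change divided by the square root of the test's F statistic. Chrdl1 was higher in tenocytes than in remaining cells, by 3.60-fold (log2 fold change 1.85 ± 0.29 SE, edgeR adjusted p = 0.00044). Tenocytes had 61.3, 28.4, 51.8, 24.5 and 27.9 CPM in the quiescent library and at days 1, 2, 4 and 14, against 8.35, 8.90, 14.2, 7.82 and 9.72 in remaining cells. The tenocyte level was above that of remaining cells in 5 of 5 libraries. After thinning, 9.73%, 2.73%, 8.08%, 3.30% and 4.83% of tenocytes had a Chrdl1 UMI, against 1.4997%, 2.01%, 2.66%, 1.29% and 1.46% of remaining cells. Before thinning the shares were 17.5%, 15.8%, 21.2%, 10.4% and 10.7% of tenocytes, against 2.84%, 6.22%, 12.2%, 4.44% and 3.67% of remaining cells. Mural cells gave no Chrdl1 UMI in the quiescent library or at day 1, then 26.4 CPM (day 2, 11 UMIs), 3.33 (day 4, 2 UMIs) and 6.12 (day 14, 5 UMIs). After thinning, 0 of 97 mural cells had one at day 1, which allows up to 3.09%, and 2.38% of 42 cells did at day 2.

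Of the 8 members tested in tenocytes, 2 were higher (6.7% of all genes were) and 3 lower (8.72%). Inhba was higher by a log2 fold change of 1.08 ± 0.32 (edgeR adjusted p = 0.035), in 4 of 5 libraries, day 1 being the exception. Lower were Bmp1 (-1.16 ± 0.22, edgeR adjusted p = 0.0022), Fst (-1.51 ± 0.35, edgeR adjusted p = 0.0082) and Fstl1 (-0.73 ± 0.20, edgeR adjusted p = 0.024), each in 5 of 5 libraries. Gdf10 was also the lower one in 5 of 5 but did not pass (-1.37 ± 0.47, edgeR adjusted p = 0.068), nor did Bmp2 (-0.73 ± 0.27, edgeR adjusted p = 0.092) or Bmp4 (-0.59 ± 0.26, edgeR adjusted p = 0.17). At day 1 Bmp4 was the higher one in tenocytes, by 1.70-fold (1.20 to 2.34). Without the day 1 library it was called lower (-0.90, edgeR adjusted p = 0.021).

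Bmp4 set mural cells apart most. It had 20.3, 2.41, 0, 5.00 and 4.89 CPM in mural cells, from 4, 1, 0, 3 and 4 UMIs, against 113, 15.9, 14.98, 19.3 and 79.1 in remaining cells. The fitted log2 fold change was -3.31 ± 0.44 (edgeR adjusted p = 6.8e-05), and the mural level was the lower one in 5 of 5 libraries. Of the 8 members tested, 6 were lower in mural cells (17.2% of all genes were) and none higher (10.6%). The others were Bmp1 (-1.64 ± 0.26, edgeR adjusted p = 0.00027), Fstl1 (-1.40 ± 0.21, edgeR adjusted p = 0.00017), Gdf10 (-2.04 ± 0.63, edgeR adjusted p = 0.026), Inhba (-1.49 ± 0.50, edgeR adjusted p = 0.038) and Fst (-1.26 ± 0.38, edgeR adjusted p = 0.023). Bmp2 was the exception among the ligands, with a log2 fold change of -0.02 ± 0.29 (edgeR adjusted p = 0.98) and the mural level the higher one in 3 of 5 libraries. Its sign turned under total UMIs (0.27). That scaling also turned the split of all genes, to 1986 higher and 897 lower in mural cells against 999 and 1618 with TMM.

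Several of these calls rested on single libraries or on the library term. Without that term the tenocyte calls of Inhba (0.97, edgeR adjusted p = 0.64), Bmp1 (-1.09, 0.24), Fst (-1.52, 0.095) and Fstl1 (-0.65, 0.47) ended, as did the mural calls of Gdf10 (-1.97, 0.083), Inhba (-1.73, 0.19) and Fst (-1.23, 0.14). Tenocyte Inhba was also lost without the quiescent (0.77, edgeR adjusted p = 0.19), day 2 (1.11, 0.060), day 4 (1.12, 0.062) or day 14 library (0.94, 0.15). Tenocyte Fst was lost without day 1 (-1.43, 0.053), and Fstl1 without quiescent (-0.58, 0.097), day 1 (-0.75, 0.085) or day 14 (-0.61, 0.14). Mural Gdf10 was lost without day 4 (-1.82, edgeR adjusted p = 0.071) or day 14 (-1.13, 0.11), and mural Inhba and Fst without day 1 (-0.87, 0.18 and -1.13, 0.095) or day 4 (-1.28, 0.10 and -1.14, 0.058). With total UMIs the mural calls of Gdf10 (-1.76, edgeR adjusted p = 0.058), Inhba (-1.18, 0.086) and Fst (-0.97, 0.073) ended. The stricter cell filter ended those of Gdf10 (-1.68, edgeR adjusted p = 0.074) and Inhba (-1.41, 0.061). Gates at 8 UMIs ended those of mural Gdf10 (-2.10, edgeR adjusted p = 0.051) and tenocyte Fstl1 (-0.64, 0.064), and gates at 3 UMIs that of tenocyte Inhba (0.91, 0.089). Chrdl1 in tenocytes and Bmp1, Bmp4 and Fstl1 in mural cells were called in 16 of 16 alternatives.

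**Figure D3:**
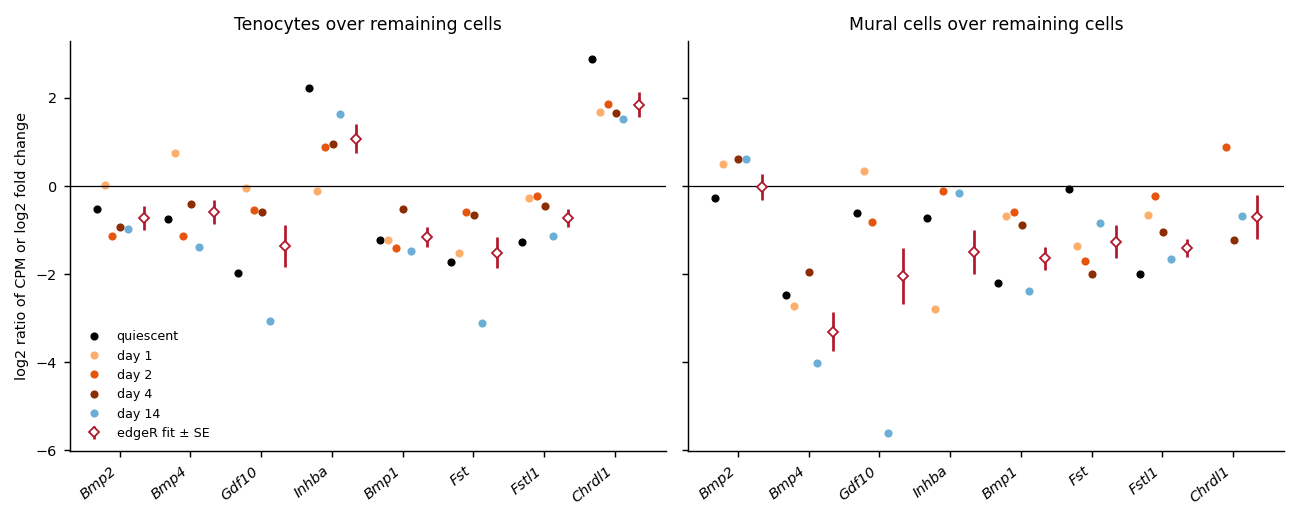
Log2 ratio of CPM of tenocytes (left) and mural cells (right) over remaining cells of the same library. Filled points are 1 for each library, and a class with no UMI has no point. Open diamonds are edgeR's log2 fold change over the 5 libraries, ± an SE derived from the test's F statistic. Chrdl1 lay above 0 in tenocytes of all 5 libraries, and Bmp4 below 0 in mural cells of the 4 libraries in which they had a UMI.

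Within the remaining cells, members had their higher levels in different subsets. Subsets were cells with at least 5 UMIs over 2 or 3 gate genes, and were set against the other remaining cells of the same library. Gates overlap and admit deeper cells more readily, and these are descriptions with no test. The gates were chosen with earlier results of these data known, among them a Clu and Cyp2f2 group with Gdf10. A higher level in a gate is thus no independent finding. Bmp4 was higher in cells with Hsd11b1, which activates glucocorticoids, and the chemokine gene Cxcl14. Those 357 cells had 241 CPM in the quiescent library, against 82.0 CPM in the other remaining cells. At day 1 gated and other cells had 28.2 and 10.3 CPM, at day 2 25.8 and 10.8, at day 4 31.7 and 16.6, and at day 14 172 and 53.0. The gated level was the higher one in all 5 libraries, by 1.91-fold to 3.24-fold, and the days 1 to 4 trough was seen inside and outside the gate. Median depth was 4006 UMIs in gated and 3842 in other cells of the quiescent library.

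Bmp2 had another distribution. It was higher in cells gated on Pi16, Dpp4 and Stmn4, of which Pi16 and Dpp4 mark a fibroblast population found in many tissues. The gated cells had 86.4 CPM in the quiescent library, then 13.8 (day 1), 18.5 (day 2), 34.0 (day 4) and 51.9 (day 14), against 53.0, 9.33, 6.63, 4.39 and 23.1 CPM in the other cells. The gap was widest at day 4, at 7.75-fold (6.10 to 9.95). The gate on Dmkn, Sbsn and Krtdap shared 168 of its 177 quiescent cells with the Pi16 gate, and there Bmp2 was 6.62-fold higher at day 4 (5.45 to 8.03), with 67.5 CPM against 10.2. Cells gated on the matrix genes Postn and Cthrc1, 2307 of the 3810 remaining cells at day 4, had 7.85 CPM of Bmp2 then, against 36.6 in the others, at median depths of 8957 and 4700 UMIs. Bmp4 in the Dmkn gate was 3.59-fold lower than in other cells of the quiescent library (2.49 to 5.35), with 34.6 CPM against 124.

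Inhba at day 1 was higher in cells with chemokine transcripts. Those cells held 2790 of the 2864 Inhba UMIs, and were also most of the remaining cells and the deeper ones. Cells gated on Cxcl5, Cxcl1 and Ccl2, chemokines that draw neutrophils and monocytes, numbered 3640 of 4536 and had 73.7 CPM, against 15.3 in the others, a ratio of 4.82 (3.83 to 6.16). Their median depth was 10163 UMIs, against 4589 in the others, and its part in the difference was not tested. In the quiescent library the same gate gave 24.2 CPM, against 25.4 in the other cells. Cells with Hsd11b1 and Cxcl14 had 112 CPM of Inhba at day 1, against 46.7 in the others (2.40-fold, 2.23 to 2.58). Cells of the Pi16 gate had 11.8 CPM at day 1, against 79.96 in the others, 6.78-fold lower (5.52 to 8.40), and their own quiescent level was 10.96 CPM. Inhba was the lower one in the Pi16 gate in all 5 libraries.

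Gdf10 was higher in a small group gated on Clu and Cyp2f2, with 21 to 46 cells per library. These had 242 CPM in the quiescent library, then 46.1 (day 1), 148 (day 2), 65.7 (day 4) and 289 (day 14), from 13 to 42 UMIs, against 35.7, 11.1, 29.1, 13.4 and 56.4 CPM in the other cells. The ratio was between 4.14 and 6.77. In the Pi16 gate Gdf10 was 6.82-fold lower in the quiescent library (4.64 to 10.4), at 9.08 CPM against 62.0, and 6.84-fold lower at day 14 (5.63 to 8.37), at 17.1 CPM against 117. Fst was higher in the Clu gate in 4 of 5 libraries, with 322 CPM in quiescent gated cells against 115 in the others. At day 4, Fst had 28.0 CPM in Postn and Cthrc1 cells against 75.3 in the others, 2.69-fold lower (2.40 to 3.02). Fstl1 and Bmp1 were higher in the Pi16 gate in all 5 libraries, by 1.47-fold to 1.96-fold and by 1.33-fold to 1.99-fold.

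**Figure D4:**
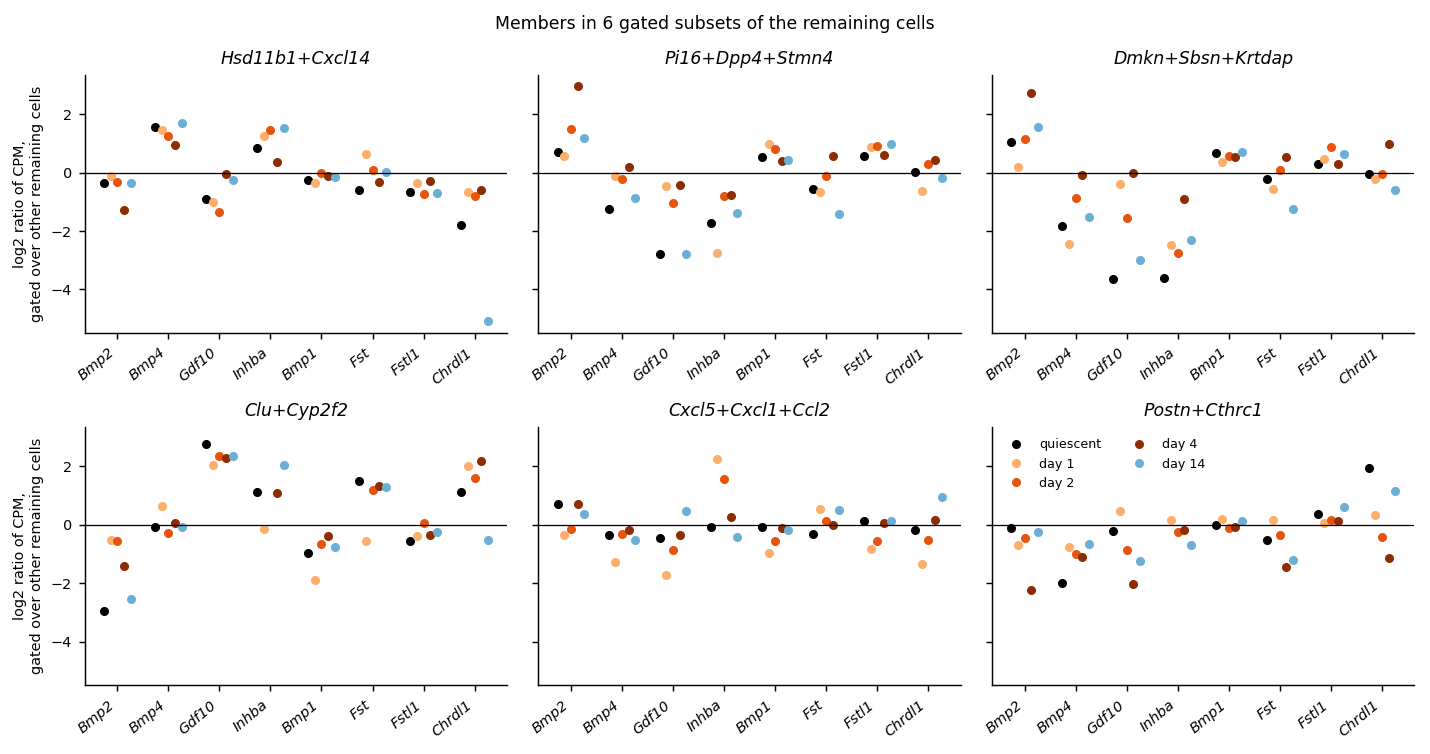
Log2 ratio of CPM of gated over other remaining cells of the same library (vertical axis) for 8 members in 6 gates named by their genes. Each point is 1 library, drawn where the gated cells had a UMI and both sides together had at least 10. Bmp4 lay above 0 in all 5 libraries of the Hsd11b1 and Cxcl14 gate, Bmp2 in those of the Pi16 gate and Gdf10 in those of the Clu gate.

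The wider pathway was read from 67 distinct genes in 7 lists, members included. In remaining cells 1 of 29 tested was higher and 14 lower at day 1, 2 of 28 were higher and 11 lower at day 2, none of 27 was higher and 10 were lower at day 4, and none of 29 was called at day 14. Of all genes, 15.5% were higher and 24.3% lower at day 1, 11.3% and 17.4% at day 2, 6.34% and 9.92% at day 4, and 1.04% and 0.643% at day 14. The median log2 ratio of those tested was -0.97, -0.61, -0.48 and -0.14. Under TMM, 3 were higher and 9 lower at day 1, beside 1961 and 708 of 6045 genes. Among the 4 BMP and GDF ligands tested, Bmp5 had 66.4 CPM in the quiescent library, then 16.5 (day 1), 47.2 (day 2), 62.1 (day 4) and 83.4 (day 14), and was 4.02-fold lower at day 1 (3.58 to 4.52). Its level was thus back near that of the quiescent library by day 4, while Bmp2 and Bmp4 were low.

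Among binding proteins, Nbl1, which encodes the BMP antagonist DAN, had 107, 17.4, 28.7, 77.7 and 125 CPM in the order of the libraries, and was 6.15-fold lower at day 1 (5.56 to 6.81). Twsg1, whose product modulates chordin and BMPs, had 51.2, 13.1, 24.3, 32.0 and 45.9 CPM, and was 3.91-fold lower at day 1 (3.42 to 4.47). Both were also called lower at day 2 (Twsg1 not under TMM, at -0.83) and neither at day 4. Pcolce2, an enhancer of procollagen cleavage by tolloid proteases, stayed low longer than Bmp1, with 577, 142, 102, 95.8 and 629.8 CPM, and was 6.02-fold lower at day 4 (5.74 to 6.31).

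Of 13 receptors and co-receptors, 6 were tested at day 1, where the receptor genes Bmpr1a (22.4 CPM against 51.7 in the quiescent library) and Bmpr2 (23.2 against 60.6) and the co-receptor gene Rgma (38.0 against 88.2) were lower. Under TMM Bmpr1a, Bmpr2 and Rgma were inside 2-fold, at log2 ratios of -0.66, -0.83 and -0.67. Rgma and Rgmb were lower at days 2 and 4, Rgma by 3.79-fold (3.40 to 4.22) and Rgmb by 3.45-fold (2.87 to 4.15) at day 2, and Rgma at day 4 was inside 2-fold under TMM (-0.97). Smad4, the shared Smad, and Smurf2, a ligase for Smads and receptors, were 2.65-fold (2.304 to 3.03) and 2.50-fold (2.15 to 2.91) lower at day 1, and both were inside 2-fold under TMM, at -0.86 and -0.78.

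The target genes had no common course. Id3 had 508 CPM in the quiescent library, then 524 (day 1), 1187 (day 2), 492 (day 4) and 677 (day 14), and Id2 had 78.7, 76.5, 186, 99.1 and 137. Both were highest at day 2, 2.34-fold (Id3, 2.26 to 2.42) and 2.36-fold (Id2, 2.17 to 2.58) above quiescent. Id1 had 31.5, 42.4, 50.7, 14.1 and 27.9 CPM, and was 2.23-fold lower at day 4 (1.89 to 2.62). Msx1, a homeobox gene, had 76.2, 19.5, 7.46, 13.2 and 95.7 CPM, and was 10.2-fold lower at day 2 (8.76 to 11.9). Msx1 and the Id genes thus differed in direction at day 2, under all 3 scalings.

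**Figure D5:**
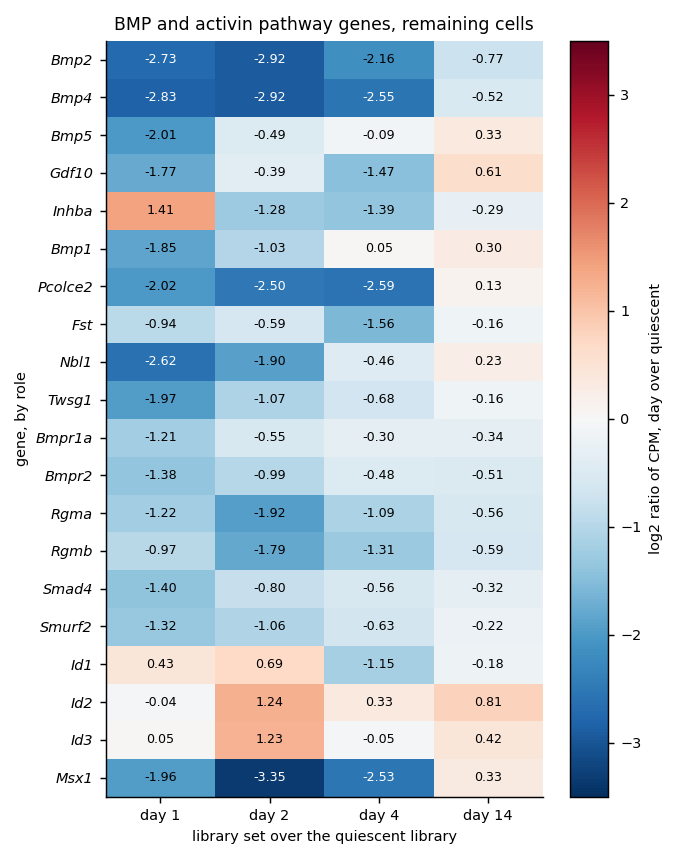
Log2 ratio of CPM (colour and number) of each later library over the quiescent library in remaining cells, for the pathway genes called on at least 1 day and Id1, Id2 and Id3, ordered by role (ligands, proteases and enhancers, binding proteins, receptors and co-receptors, Smads and ligase, targets). Bmp2 was at -2.92 and Id3 at 1.23 at day 2, and values at day 14 lay between -0.77 and 0.81.

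In the class comparison 37 pathway genes were tested, of which 8 were higher (6.7% of all genes were) and 11 lower (8.72%) in tenocytes, and 4 were higher (10.6%) and 17 lower (17.2%) in mural cells, with medians of -0.44 and -0.71 against -0.08 and -0.10 for all genes. The genes named here were chosen after their values were seen. Mstn, the gene of myostatin, a negative regulator of muscle mass, was measured in tenocytes at 11.9, 8.30, 10.9, 20.6 and 29.1 CPM in the order of the libraries, against 0, 0, 0.0316, 0.0665 and 0.0803 in remaining cells and no UMI in mural cells. It is among the 8 counted higher, and passed the filter on low counts only through tenocytes, so its call carries no weight. Tenocytes were also higher in Bmp5 (0.76 ± 0.19, edgeR adjusted p = 0.012), Id2 (1.17 ± 0.21, edgeR adjusted p = 0.0015), Id3 (0.65 ± 0.15, edgeR adjusted p = 0.0065), Msx1 (0.81 ± 0.16, edgeR adjusted p = 0.0024) and the receptor gene Acvr1 (0.78 ± 0.18, edgeR adjusted p = 0.0074), each in 5 of 5 libraries. Mural cells were higher in Bmp5 (0.70 ± 0.20, edgeR adjusted p = 0.018), Id1 (1.26 ± 0.31, edgeR adjusted p = 0.0066) and Id3 (0.59 ± 0.15, edgeR adjusted p = 0.0077), each in 5 of 5. Fstl3, a follistatin relative, had 10.2, 50.6, 14.4, 5.00 and 22.0 CPM in mural cells, against 6.57, 11.3, 4.65, 2.59 and 3.85 in remaining cells. It is among the 4 counted higher, and passed the filter on low counts only with its mural sums, so its call carries no weight. Smad3 was lower in mural cells (-2.22 ± 0.32, edgeR adjusted p = 0.00013), where it had at most 5.08 CPM. Also lower in mural cells were Id2 (-1.27 ± 0.25, edgeR adjusted p = 0.0015), the BMP-binding Bmper (-2.37 ± 0.41, edgeR adjusted p = 0.00053) and Pcolce2, a procollagen C-proteinase enhancer gene (-2.23 ± 0.39, edgeR adjusted p = 0.00057), each in 5 of 5, and Msx1 (-0.61 ± 0.20, edgeR adjusted p = 0.036) in 4 of 5.

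No alternative turned the sign of these calls, but some ended them. Smad3, Id2, Bmper and Pcolce2 in mural cells were called in 16 of 16 alternatives. The fit without the library term ended the call of every other gene named, Mstn aside. The tenocyte calls were otherwise lost for Acvr1 without day 14 (0.71, edgeR adjusted p = 0.072) and Bmp5 without quiescent (0.73, 0.067). In mural cells Bmp5 was lost without quiescent (0.66, edgeR adjusted p = 0.074), and Bmp5 (0.50, 0.073) and Id3 (0.39, 0.088) when every gene with a UMI was tested. Mural Msx1 was called in 7 of 16, and was lost, among others, without quiescent (-0.50, edgeR adjusted p = 0.16), day 4 (-0.58, 0.085) or day 14 (-0.49, 0.26) and with total UMIs (-0.32, 0.28).

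The genes most like each member over the 15 class and library sums were ranked by Pearson's r of log2(CPM + 10) among 6957 genes, as a description in which sums of 1 library share its depth. For Bmp1 they were the collagen genes Col14a1 (0.97) and Col3a1 (0.95) and the receptor gene Tgfbr2 (0.95). For Fstl1 they were Lsp1 (0.94), the crosslinking enzyme gene Loxl1 (0.93) and Trim30a (0.92). For Inhba they were Ctgf (0.86), which encodes a matricellular protein, Npdc1 (0.85) and the monocarboxylate transporter gene Slc16a1 (0.84), and for Chrdl1 the Wnt receptor gene Fzd1 (0.92), Gm13305 (0.89) and Cldn9 (0.87). Bmp2 was most like Zbtb7a (0.94), Ino80d (0.94) and Chpt1 (0.93), and Bmp4 most like Gm2000 (0.93), Gm10263 (0.93) and the ribosomal gene Fau (0.88). Gdf10 was most like Agpat4 (0.83), Sec14l1 (0.81) and Hsd11b1 (0.80), and Fst like Frmd6 (0.82), Igf1r (0.79) and Ppfibp1 (0.76).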

How the data were processed

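The authors deposited UMI counts, whole numbers per gene and cell barcode, for 5 libraries, 1 per time. Per the submitters' processing notes, Cell Ranger (version not stated) and mm10 were used, and the strand setting is not given in the sources used here. Samples were grouped by the labels, and all columns used belong to these 5 libraries. Cells with at least 500 genes and at most 10% mitochondrial UMIs were kept. No doublet caller was run, and leaving out the deepest 5% of cells was an alternative. Cells with at least 5 UMIs in both gates (6 cells) were left out. Counts were summed per class and library, giving 15 sums of 196686 to 42679103 UMIs.

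CPM used total UMIs. Days were compared with the quiescent library by ratios with exact conditional binomial 95% intervals. Levels have exact Poisson intervals and shares exact Clopper-Pearson ones, and a count of 0 has a floor of 3 UMIs per library. All cover counting error only. Classes were compared with edgeR 4.0.16 (quasi-likelihood, TMM, library as a term, filterByExpr, R 4.3.3) with Benjamini-Hochberg adjustment at 0.05, leaving out the 8 gate genes from counts of calls. The 3 class sums of a library come from the same sorted sample, which pairs them. SEs were derived from the log2 fold change and the test's F statistic, since the test gives none. The fit was tested on simulated data. Alternatives were TMM or DESeq2 1.42.0 size factors, the minimum CPM, the cell filter, gates at 3 or 8 UMIs, leaving out cells of other types or the deepest cells, a mean over cells, the DESeq2 test, the library term, the gene filter, each library in turn, and thinning to 1000 UMIs or none.

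The members, lists and subset gates were chosen with earlier results of these data known. Named were all 9 members, at most 4 called genes per list and day with the largest change, Id1, Id2 and Id3, and for each member the 3 genes most like it. Further list genes in the class comparison were named after their values were seen.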

Additional observations from a re-analysis of the deposited data

Results flagged for a closer look

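For 5 values the ratio to the quiescent library ran in opposite directions in 2 cell classes, with both 95% intervals clear of no change. Other pairs in opposite directions, with an interval that did not exclude a ratio of 1, are not listed. The differences were not tested, since each class had 1 library per time, and both ratios of a pair come from the same libraries. Inhba at day 1 had a log2 ratio of -0.93 in tenocytes and 1.41 in remaining cells, a difference of -2.34. Fstl1 at day 1 had 0.49 in mural cells and -0.85 in remaining cells, a difference of 1.34. Fstl1 at day 2 had 0.71 in tenocytes and 1.45 in mural cells, against -0.33 in remaining cells, which gives differences of 1.04 and 1.78. Under TMM the Fstl1 ratio of remaining cells was -0.30 at day 1 and -0.08 at day 2. Gdf10 at day 14 had -4.38 in mural cells, from 1 UMI against 5 in the quiescent library, and 0.61 in remaining cells, a difference of -4.98.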

How the results depend on the processing

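Of the members' day ratios in remaining cells, 1 changed direction, that of Chrdl1 at day 4, which was not called (-0.09, and 0.03 under TMM), and 56 of 352 moved beyond their counting interval, 18 under DESeq2 size factors, 17 under TMM, 14 with the mean over cells, 4 with the stricter cell filter and 3 without the deepest cells. Among 256 refitted class changes of members, 217 kept direction and call, 29 lost the call, 5 gained it and 5 turned sign. All 5 were Bmp2 in mural cells, main value -0.02, which was 0.27 with total UMIs only, 0.10 with the stricter cell filter, 0.12 with gates at 8 UMIs, and -0.27 to 0.16 with a library left out, above 0 without quiescent (0.11) or day 2 (0.16). Of 180 refitted shares, 81 moved beyond their interval, all with thinning to 1000 UMIs or none. The causes of the other changes were not tested.

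At day 1 the pathway genes called higher were 3 under TMM, 4 under DESeq2 and 4 with no minimum CPM, against 1, and those lower 9, 9 and 28, against 14. All genes higher were then 1961, 2013 and 1502, against 935, and lower 708, 689 and 5233, and 709 with a 50 CPM minimum, against 1470. At day 2 members lower were 2 under DESeq2 against 4, pathway genes higher 4 with no minimum against 2, and lower 7 under DESeq2 and 20 with no minimum against 11. All genes higher were 1140 (TMM), 1260 (DESeq2), 1626 (no minimum), 442 (50 CPM) and 452 (mean over cells) against 687, and lower 659, 606, 3810 and 515 against 1055. At day 4 members lower were 3 with a 50 CPM minimum against 5. With no minimum, pathway genes were 4 higher against 0 and 18 lower against 10, and 6 lower with 50 CPM. All genes were 1430 higher and 2481 lower with no minimum, and 223 and 317 with 50 CPM, against 377 and 590. At day 14 pathway genes higher were 5 with no minimum against 0, and all genes were 913 higher and 556 lower with no minimum, and 25 and 19 with 50 CPM, against 60 and 37.

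Without the library block (the pairing of classes by library), tenocyte members were 1 higher and 0 lower against 2 and 3, and all genes 236 and 271 against 631 and 822. With the 0, edgeR's quasi-likelihood test gave unadjusted p-values under 0.05 for 3 members lower (Bmp1, Fst and Gdf10), and DESeq2 with the block called 3 (Bmp1, Fst and Fstl1). Mural members lower were then 3 against 6, and all genes 583 and 586 against 999 and 1618. Gates at 3 UMIs left 1 tenocyte member higher. Testing every gene with a UMI gave 6 tenocyte members lower, 951 and 1451 genes in tenocytes, and 2587 lower in mural cells. With total UMIs only, mural members lower were 3, and all genes 1986 and 897. With 1 library left out, tenocyte members higher were 1 to 2, all genes 379 to 618 higher and 399 to 806 lower, lowest without day 14. Mural members lower were then 3 to 6, lowest without day 4, and all genes lower 950 to 1637, with 1065 without day 4 and 950 without day 14.

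Depth limits Grem1, most members in mural cells and small gates. Intervals cover counting error only, and 1 library per time gives no measure of spread between animals.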

Other observations

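Members also differed in how far they moved with one another over the 15 class and library sums, given as Pearson's r of log2(CPM + 10), a description in which sums of 1 library share its depth. The closest pair was Bmp1 and Fstl1 (0.75), followed by Gdf10 and Fst (0.72). Bmp2 and Bmp4, which had similar courses in remaining cells, reached 0.59 over all classes, where mural cells differed in Bmp4 and not detectably in Bmp2. The lowest value was that of Bmp2 and Chrdl1 (-0.37).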
